A study of Rattus norvegicus with 6 samples.

Results

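The adult globin genes and the gene of the alpha globin chaperone were examined in rat skull defects that had been filled with one of 2 hydrogels. The members are the rows of the deposited gene table named Hba-a1, Hba-a2, Hbb, Hbb-b1 and Ahsp, and all 5 were found among 34045 genes. The libraries came from male wild type Sprague-Dawley rats, an outbred albino stock, at week 4 after a defect had been made in the calvaria, the roof of the skull. In 3 libraries the defect had received the gel labelled CGG and in the other 3 the gel labelled CGG-Cit, names that the labels do not spell out. Both groups carried a gel, so neither is an untreated defect. No label says whether the libraries of a group came from separate or pooled rats, so the p-values speak to the spread among these libraries alone, and that spread may be technical.

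Haemoglobin, the oxygen carrier of red blood cells, is built from alpha and beta globin chains that each hold a haem group. The alpha genes lie in one cluster and the beta genes in another, on different chromosomes, and both clusters are switched on late in red cell formation, when globin becomes the main product of the erythroblast and of the young, still RNA-bearing reticulocyte. Free alpha chains are unstable, and the chaperone encoded by Ahsp binds them until they join a beta chain. In adult rats this happens mainly in marrow, which also lies in the spongy layer of skull bones.

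The members are listed in the deposited table as follows, with no build that could be tied to the coordinates. Hba-a1 (ENSRNOG00000029886) lies on chromosome 10 from 15602794 to 15603649 and Hba-a2 (ENSRNOG00000047321) from 15589364 to 15590220, both on the minus strand. Hbb (ENSRNOG00000058105) lies on chromosome 1 from 168971274 to 168972725 on the minus strand. Hbb-b1 (ENSRNOG00000047098) is listed on the plus strand of chromosome 1 from 168945449 to 168965566, a span of 20118 bases that contains a further beta globin row, LOC100134871. Ahsp (ENSRNOG00000020165) lies on chromosome 1 from 199720038 to 199721010 on the plus strand. The alpha copies are near-identical in coding sequence, and the beta copies are close relatives, so the split of fragments between copies is uncertain and sums over copies are given beside the single genes.

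The start regions of the globin genes are shown as a description, with no test of a link to the levels of these genes. They are the 130 bases before each start in RefSeq's GRCr8, printed along the gene's own strand, the minus strand in every case. The deposited table lists the measured rows Hbb-b1 and LOC100134871 on the plus strand, so those rows and the RefSeq genes of the same names or number disagree on strand. Capitals mark the words that were searched on both strands: CCAAT, the TATA-like words TATAAA and CATAAA, the GATA words (the word AGATAA, the word AGATAG, the word TGATAA and the word TGATAG), and CACCC with its longer form CCACACCC. The windows are chr10:15842581-15842710 for Hba-a1, chr10:15829139-15829268 for Hba-a2, chr1:167663722-167663851 for Hbb and chr1:167643521-167643650 for Hbb-b1. Hbbl1, at chr1:167650236-167650365, is the RefSeq gene whose number, 100134871, is that of the row LOC100134871. Ahsp had no entry in the promoter table.
Hba-a1: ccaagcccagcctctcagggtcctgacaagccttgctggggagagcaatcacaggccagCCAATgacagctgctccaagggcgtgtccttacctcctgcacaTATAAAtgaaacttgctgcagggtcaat
Hba-a2: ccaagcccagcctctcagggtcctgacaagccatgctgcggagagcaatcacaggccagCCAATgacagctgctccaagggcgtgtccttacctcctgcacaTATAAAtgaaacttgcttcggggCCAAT
Hbb: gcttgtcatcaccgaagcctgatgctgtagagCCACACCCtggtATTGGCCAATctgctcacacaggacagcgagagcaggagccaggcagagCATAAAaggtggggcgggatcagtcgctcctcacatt
Hbb-b1: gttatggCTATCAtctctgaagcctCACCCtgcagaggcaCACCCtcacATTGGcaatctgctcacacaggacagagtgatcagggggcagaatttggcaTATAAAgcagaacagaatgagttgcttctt
Hbbl1: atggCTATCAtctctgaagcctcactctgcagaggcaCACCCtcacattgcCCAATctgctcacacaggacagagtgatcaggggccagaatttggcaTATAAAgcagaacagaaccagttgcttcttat

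The windows of Hba-a1 and Hba-a2 were equal at 96.2% of the 130 positions, whereas those of Hbb and Hbb-b1 were equal at 51.2% after the best shift of up to 5 bases. Both alpha genes have CCAAT with its first base 71 before the start and TATAAA with its first base 28 before it. Hba-a2 has a further CCAAT next to the start, which the window of Hba-a1 lacks. Before the printed bases both alpha genes also have CACCC at -149 and TGATAA at -165. Hba-a1 has a reverse-strand CCAAT at -203, and Hba-a2 has TGATAG at 13, past the start. Hbb has CCACACCC at -98, CCAAT at -81 and, on the reverse strand and directly before it, a further CCAAT at -86, with CATAAA at -37 and no TATAAA. Hbb-b1 and Hbbl1 have TATAAA (at -30 and -32), CACCC and, on the reverse strand, TGATAG (at -123 and -126). These words are common in rat start regions. Over 33469 windows of 300 bases CCAAT occurred in 37.5%, TATAAA in 14.2% and CACCC in 54.9%. Any of the 4 GATA words occurred in 30.3% and CCACACCC, the rarest, in 3.22%. Those windows run from 250 bases before the start to 50 after it, so they are wider than the 130 bases printed. A match describes the letters in these windows and not the binding of a factor.

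All 5 genes had lower levels in the CGG-Cit libraries, by 2.19-fold to 3.16-fold on the group means, and for 4 of them the difference passed the test. Hba-a1, Hba-a2, Hbb-b1 and Ahsp were called lower, and Hbb was not. The level is FPKM, the fragments counted in a gene for its length in kilobases after scaling to the library's size, and the test is limma on log2(FPKM + 1), with p adjusted over the 15965 genes whose mean reached 0.5 FPKM and a call at an adjusted p under 0.05. Over the same 15965 genes 9.78% were called lower, and the median log2 fold change (CGG-Cit minus CGG) was 0.002 against -1.43 for the 5 genes. All 5 genes had passed the filter on low values in both groups. In none of the 5 did the groups overlap, which was so, in this direction, for 22.1% of all genes tested. In whole tissue, fewer cells of a type and less RNA per cell cannot be told apart.

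**Figure D1:**
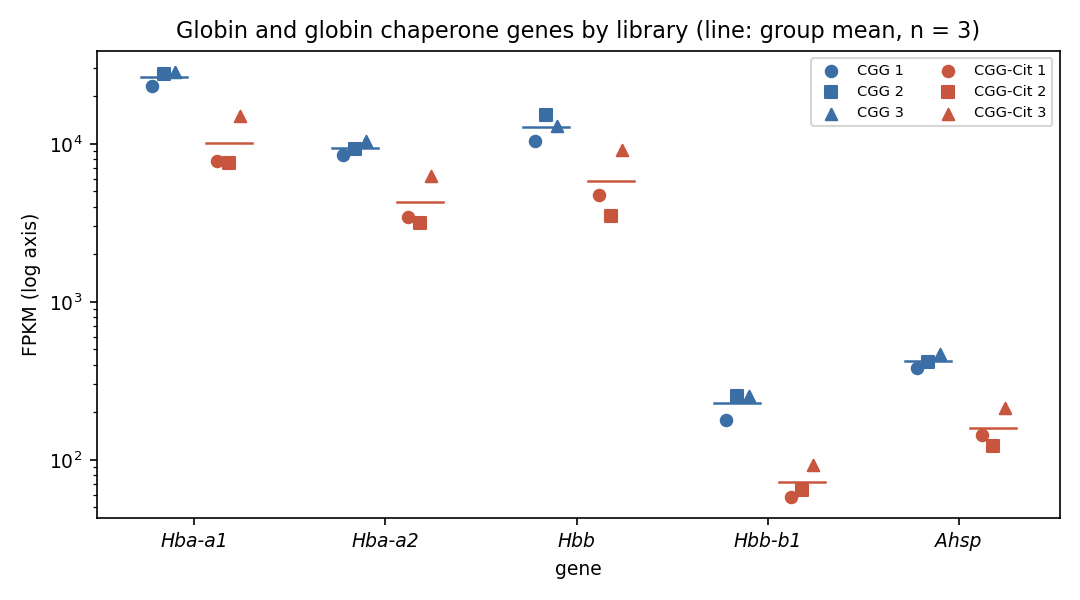
FPKM on a log axis of the 5 genes in each of the 6 libraries. Points are libraries and lines are group means (n = 3). All CGG points lie above all CGG-Cit points of the same gene, and CGG-Cit 3 is the highest CGG-Cit library for each of the 5 genes.

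Hba-a1, which encodes the alpha chain, had 23308, 27466 and 28452 FPKM in the CGG libraries, numbered 1 to 3, and 7819.8, 7554.7 and 14969 in CGG-Cit. It was the most abundant row of the whole table in all 3 CGG libraries and in CGG-Cit 3, and the fourth in CGG-Cit 1 and CGG-Cit 2. The means were 26409 ± 2730.1 and 10115 ± 4207 FPKM (SD, n = 3), a 2.61-fold difference. The log2 fold change was -1.45 ± 0.34 (SE), with an adjusted p of 0.0344. Even the lowest CGG library exceeded the highest CGG-Cit library by 1.56-fold. The call passed in 12 of 19 alternative fits. It was lost without CGG 1 (adjusted p = 0.0733), CGG 2 (0.0854), CGG 3 (0.124), CGG-Cit 1 (0.112) or CGG-Cit 2 (0.123), without the filter on low values (0.391) and after quantile normalization (0.268). Quantile normalization gives the first-ranked row the same value in each library, so Hba-a1 was tied in the 3 CGG libraries and CGG-Cit 3. That fit thus cannot compare those libraries for Hba-a1.

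Hba-a2, the other alpha chain gene, had 8465, 9282 and 10341 FPKM in CGG and 3417, 3137 and 6277 in CGG-Cit. Its level was lower than that of Hba-a1 in every library, and its libraries stood in the same order within CGG and within CGG-Cit. The means were 9363 ± 940.4 and 4277 ± 1737 FPKM, 2.19-fold apart, with a log2 fold change of -1.198 ± 0.30 (SE) and an adjusted p of 0.0412. The call passed in 10 of 19 alternative fits. It was lost without the same 5 libraries (adjusted p = 0.0856, 0.0967, 0.138, 0.118 and 0.136, in the same order). It was also lost without the filter (0.207), after quantile normalization (0.283), after scaling to TPM (0.0509) and after scaling to equal totals without the 4 globin genes (0.0513). With the 2 alpha rows summed into 1, the log2 fold change was -1.38 ± 0.36 (SE), with an adjusted p of 0.0449 in limma.

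Hbb, the most abundant beta globin row, had 10433, 15151 and 12915 FPKM in CGG and 4742, 3491 and 9141 in CGG-Cit. CGG-Cit 3 was 2.62 times CGG-Cit 2, the widest spread within a group among the 5 genes, and it came within 1.14-fold of the lowest CGG library. The means were 12833 ± 2360.2 and 5791 ± 2967 FPKM, 2.22-fold apart. The log2 fold change of -1.25 ± 0.39 (SE) had an unadjusted p of 0.0154 and an adjusted p of 0.0693 in limma, so Hbb was not called. It passed in 3 of 19 alternative fits, namely voom on recovered fragments (adjusted p = 0.0491), sample quality weights (0.0383) and the fit without CGG-Cit 3 (0.0146). The sum of Hbb and Hbb-b1, which is nearly all Hbb, gave -1.26 ± 0.39 (SE) and an adjusted p of 0.0681 in limma.

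Hbb-b1, a beta globin row far below the Hbb level, had 179.3, 252.7 and 251.8 FPKM in CGG and 58.57, 64.55 and 92.95 in CGG-Cit. These levels rest on 1212 to 5349 fragments per library. The means were 228 ± 42.2 and 72 ± 18.4 FPKM, 3.16-fold apart, and the lowest CGG library was 1.93 times the highest CGG-Cit library. The log2 fold change was -1.66 ± 0.21 (SE), with an adjusted p of 0.00969, the smallest of the 5 genes. The call passed in 18 of 19 alternative fits and was lost without CGG 3 (adjusted p = 0.0505). Because the row spans LOC100134871 on the listed strand, fragments of that copy may be counted here, which was not tested. Hbb-b1 stood at 3.74%, 5.14% and 4.05% of LOC100134871 in CGG and 4.14%, 3.58% and 4.44% in CGG-Cit, with overlapping ranges.

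Ahsp, the alpha globin chaperone, had 381.1, 415.1 and 466.4 FPKM in CGG and 143.3, 122.6 and 213.1 in CGG-Cit. The CGG libraries lay close together, and all 3 exceeded the highest CGG-Cit library by at least 1.79-fold. The means were 420.9 ± 42.9 and 159.7 ± 47.4 FPKM, 2.64-fold apart, with a log2 fold change of -1.43 ± 0.21 (SE) and an adjusted p of 0.0129. The call passed in 19 of 20 alternative fits and was lost without CGG 3 (adjusted p = 0.0583). Ahsp is a single-copy gene with no overlapping row in the table, so it is free of the doubt over globin copies.

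CGG-Cit 3 stood apart from the other 2 CGG-Cit libraries in each gene, at 14969 FPKM against 7819.8 and 7554.7 for Hba-a1, for example. It was the highest CGG-Cit library for 5 of 5 genes, where 36.8% of all genes tested had it highest. With CGG-Cit 3 left out, all 5 genes were called lower (adjusted p = 0.00289 to 0.0146). With CGG 3 left out, 0 of 5 were called lower by limma, all 5 with an unadjusted p under 0.05, and the adjusted p ran from 0.0505 to 0.18. With any other library left out the called genes were Hbb-b1 and Ahsp, 2 in each case. The number called lower over all 15965 genes fell from 1561 with all 6 libraries to 190 without CGG 3. It was 666 and 498 without CGG 1 and CGG 2, and 488, 249 and 1622 without CGG-Cit 1, CGG-Cit 2 and CGG-Cit 3. All 5 log2 fold changes were below 0 in each of the 19 alternative fits that tested the 5 genes singly. They lay between -1.86 and -0.50, the latter for Hba-a1 after quantile normalization, which tied its value in several libraries. That of Ahsp was also below 0 in the fit with copies summed. Without a library that direction was fixed, because the groups do not overlap.

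**Figure D2:**
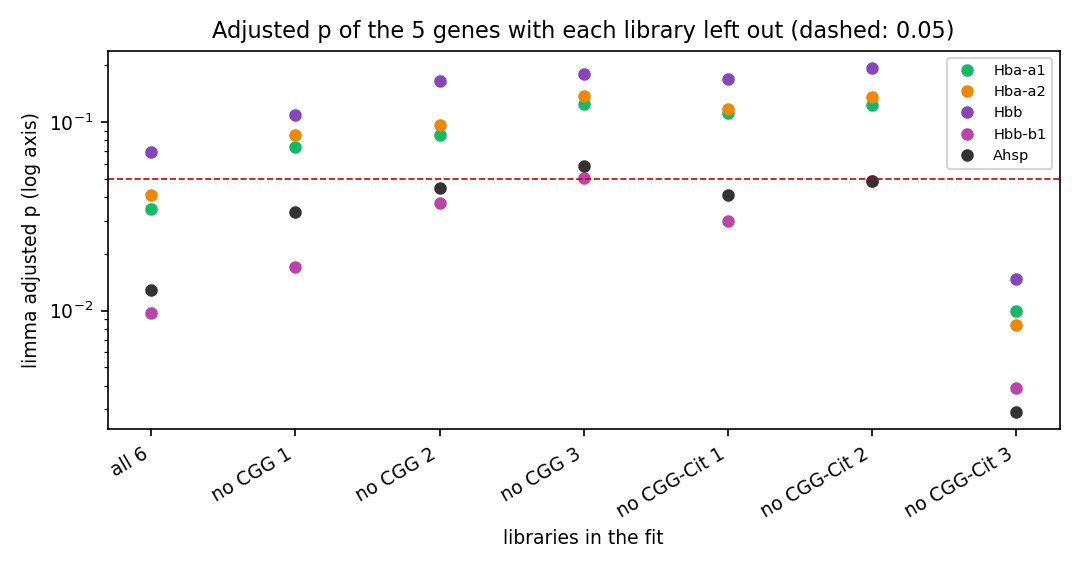
Adjusted p from limma, on a log axis, of the 5 genes with all 6 libraries and with each library left out in turn, with a dashed line at 0.05. Hbb-b1 and Ahsp lie below the line except without CGG 3 (0.0505 and 0.0583), Hba-a1 and Hba-a2 lie below it with all 6 libraries and without CGG-Cit 3, and Hbb lies below it only without CGG-Cit 3.

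As a share of the library, the 4 globin genes took 2.63%, 2.97% and 3.03% of the assigned fragments in CGG and 0.981%, 0.858% and 1.87% in CGG-Cit. The depth was even, at 14744207 to 16224920 assigned fragments per library. The mean shares were 2.88% ± 0.217 and 1.24% ± 0.553 (SD, n = 3), a difference of -1.64 percentage points with an exact two-sided permutation p of 0.1, the smallest that 3 against 3 libraries allow. RNA of these 4 genes thus made up a larger part of every CGG library than of any CGG-Cit library. Adding the further globin rows Hba-a3, Hbq1a and LOC100134871 gave 2.96%, 3.28% and 3.43% in CGG and 1.07%, 0.979% and 2.02% in CGG-Cit. With library totals set equal without the 4 globins, the median log2 fold change of all genes moved to 0.09, and 3 of the 5 genes were called lower. TPM, which moved that median to 0.16, also left 3.

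The balance of alpha to beta globin did not separate the groups. The ratio of summed FPKM, Hba-a1 and Hba-a2 over Hbb and Hbb-b1, was 2.99, 2.39 and 2.95 in CGG and 2.34, 3.01 and 2.30 in CGG-Cit. Each group held both high and low libraries, and the ranges overlapped almost wholly. The means were 2.78 ± 0.338 and 2.55 ± 0.397 (SD, n = 3), with a log2 difference of -0.13 and an exact two-sided permutation p of 0.5 (0.72 adjusted over the 6 ratios computed). With 3 libraries a group this does not show that the balance was equal. The ratio rests on summed FPKM and on the copies as listed, so its distance from 1 is not a measure of chain balance.

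The spread of that ratio went along with the make-up of the beta globin rows. LOC100134871, a beta globin row inside the span of Hbb-b1 (ENSRNOG00000061299, listed on chromosome 1 from 168957460 to 168958836), was looked at after the values had been seen. It had 4791, 4916 and 6214 FPKM in CGG and 1415, 1803 and 2094 in CGG-Cit, with a log2 fold change of -1.59 ± 0.21 (SE) and an adjusted p of 0.0106 (0.0517 without CGG 3). Of the 3 beta rows together, Hbb made up 67.7%, 74.6% and 66.6% in CGG and 76.3%, 65.2% and 80.7% in CGG-Cit. The libraries with the largest Hbb part, CGG 2, CGG-Cit 1 and CGG-Cit 3, were the ones with an alpha to beta ratio under 2.5. Hbb is nearly all of the denominator of that ratio and also the numerator of the Hbb part. The match therefore follows at least in part from arithmetic and is given as a description. With LOC100134871 and the minor alpha row Hba-a3 added, the ratio narrowed to 2.08, 1.82 and 2.01 in CGG and 1.81, 2.02 and 1.90 in CGG-Cit. Those means were 1.97 ± 0.131 and 1.91 ± 0.102, with an exact two-sided permutation p of 0.6.

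**Figure D3:**
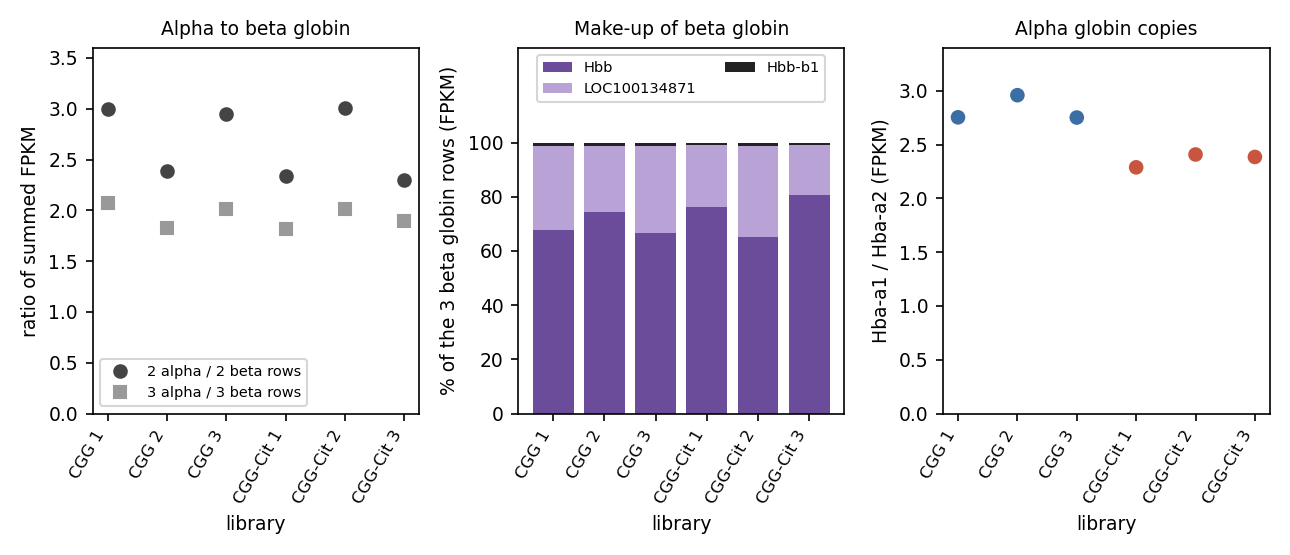
Globin proportions by library, from FPKM. Left, alpha to beta ratio with 2 alpha and 2 beta rows (circles) and with 3 of each (squares); middle, stacked percentages of the 3 beta rows; right, Hba-a1 over Hba-a2 (blue CGG, red CGG-Cit). The alpha to beta ratios of the groups overlap, the Hbb part runs from 65.2% to 80.7%, and Hba-a1 over Hba-a2 is 2.75 to 2.96 in CGG and 2.29 to 2.41 in CGG-Cit.

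Between the alpha copies the proportions did separate the groups. Hba-a1 over Hba-a2 was 2.75, 2.96 and 2.75 in CGG and 2.29, 2.41 and 2.38 in CGG-Cit, means of 2.82 ± 0.119 and 2.36 ± 0.0634 (SD, n = 3). The ranges did not overlap, and CGG-Cit 3, which stood apart in level, lay within its group in this ratio. The log2 difference was -0.26, with an exact two-sided permutation p of 0.1, the smallest this design allows, and 0.6 after adjustment over the 6 ratios. How the copies' shared sequence was counted bears on this value and was not tested. For the beta copies, Hbb-b1 was 1.72%, 1.67% and 1.95% of Hbb in CGG and 1.24%, 1.85% and 1.02% in CGG-Cit, with overlapping ranges and an exact permutation p of 0.3 (0.6 adjusted).

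Relative to the alpha chains that it binds, Ahsp did not separate the groups. Its level was 1.2%, 1.13% and 1.2% of the alpha sum in CGG and 1.28%, 1.15% and 1.003% in CGG-Cit, with a log2 difference of -0.05 and an exact permutation p of 0.8 (0.8 adjusted). The 4 globins were 239, 288 and 247 times Alas2, the erythroid enzyme that starts haem synthesis, in CGG and 266, 299.6 and 279 times in CGG-Cit (exact permutation p = 0.3, 0.6 adjusted). Against Slc4a1, the anion exchanger of the red cell membrane, they stood at 175, 209.8 and 176 in CGG and 145, 178 and 181.5 in CGG-Cit (exact permutation p = 0.6, 0.72 adjusted). In these ratios to other red cell genes the groups overlapped, while each globin gene on its own was at least 2.19-fold apart. Over the 6 libraries, which share depth and groups, log2 levels of the 5 genes correlated pairwise at 0.924 to 0.996, and at 0.821 to 0.992 after the group means were taken out. These correlations are given as a description.

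The minor globins lay far below Hba-a1, and the embryonic and fetal globins were sparse. Hbq1a, a theta-like member of the alpha cluster looked at after the values had been seen, had 67.2, 82.2 and 88.8 FPKM in CGG and 23.5, 18.4 and 36.4 in CGG-Cit, and was called lower (log2 fold change -1.61 ± 0.24 SE, adjusted p = 0.0136, and 0.0601 without CGG 3). Hba-a3 had 206.9, 325.1 and 194 FPKM in CGG and 24.6, 107.5 and 225 in CGG-Cit, overlapping groups that were not called (adjusted p = 0.209). Of the embryonic and fetal types, Hbe1 did not exceed 3.09 FPKM in any library (adjusted p = 0.427), Hbe2 and Hbg1 were listed above 0 only in CGG 2, at 0.72 and 0.107 FPKM, and Hbz was listed at 0 throughout. Adult globins therefore accounted for nearly all globin fragments in these libraries.

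The globins that do not form haemoglobin behaved each in its own way. Mb, the myoglobin of muscle, had 94.6, 882 and 793 FPKM in CGG and 5.12, 0.89 and 31.3 in CGG-Cit, and was called lower with a log2 fold change of -5.82 ± 1.23 (SE) and an adjusted p of 0.0264. CGG 1 was well below the other CGG libraries in Mb, although its summed skeletal muscle markers, at 6181 FPKM, were the highest of the 6 libraries. Mb passed without CGG 1 and without CGG-Cit 3, and in no other fit that left out a library (adjusted p up to 0.0933). Cygb, the cytoglobin of fibroblast-like cells, had 17, 23.8 and 12.3 FPKM in CGG and 24, 30.8 and 40 in CGG-Cit, every CGG-Cit library above every CGG library (19.6% of all genes tested), but was not called (log2 fold change 0.82, adjusted p = 0.0792). Ngb, the neuroglobin, was listed at 0 in all CGG libraries and in CGG-Cit 1.

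By the shape of their levels over the 6 libraries, the genes nearest to the mean of the 5 were Clec1b, Bpgm, Cd52, Rhd, Tspan2, Kel, Klf1, Nfe2, AABR07066944.1 and Rasgrp2, in this order. Likeness was the root mean square distance between centred log2(FPKM + 1) profiles, from 0.0728 for Clec1b to 0.106 for Rasgrp2, among 13902 candidate genes. Klf1, the erythroid factor that binds CACCC words, had 73.4, 71.6 and 82.3 FPKM in CGG and 24.2, 22 and 43.2 in CGG-Cit. Bpgm encodes the red cell enzyme that makes bisphosphoglycerate, Rhd and Kel encode blood group proteins, and Nfe2 a factor of erythroid and platelet precursors. Clec1b is a platelet receptor, Rasgrp2 a platelet signalling protein and Cd52 a surface protein of lymphocytes, so the list is not of red cell genes alone. Since they were chosen for a profile like that of the 5 genes, which is lower in CGG-Cit, their being lower follows from the choice and is given as a description, beside 9.78% called lower over all genes. All 10 were called lower with all 6 libraries and without CGG-Cit 3; without CGG 3, 0 of 10 passed limma (adjusted p = 0.0547 to 0.0883), all 10 with an unadjusted p under 0.05. The number that passed was 6, 3, 5 and 1 without CGG 1, CGG 2, CGG-Cit 1 and CGG-Cit 2.

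Genes that supply haem were lower with the globins. Of 14 genes of haem synthesis 12 were called lower and 0 higher, with a median log2 fold change of -0.95, beside 9.78% called lower and 7.75% called higher over all genes. Alas2 had 177, 181 and 211 FPKM in CGG and 60.2, 47.6 and 109 in CGG-Cit (log2 fold change -1.46 ± 0.29 SE, adjusted p = 0.0231). Fech, which inserts the iron, fell by 1.11 on the log2 scale (adjusted p = 0.0219), and Uros and Urod, enzymes of the middle steps, fell by 1.05 and 0.96. Slc25a38, the mitochondrial glycine carrier, fell by 0.64 (adjusted p = 0.0182). The number called lower was 5, 3 and 0 without CGG 1, CGG 2 and CGG 3, and 4, 1 and 12 without CGG-Cit 1, CGG-Cit 2 and CGG-Cit 3, with 12 to 14 of the 14 at an unadjusted limma p under 0.05. In the same fits 666, 498 and 190, and 488, 249 and 1622, of all 15965 genes tested were called lower. These are the background for this list and for those that follow.

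Among 18 erythroid regulators 9 were called lower and 0 higher, with a median log2 fold change of -0.64. Over all genes tested 9.78% were called lower and 7.75% higher, with a median of 0.002. Klf1 fell by 1.38 on the log2 scale (adjusted p = 0.019), Nfe2 by 1.52 (0.0182), Gfi1b, a repressor of the red cell and platelet lineages, by 1.21 (0.0191), and Epor, the erythropoietin receptor, by 1.16 (0.0192). Gata1, the factor that binds GATA words, was listed at only 0.437, 2.44 and 0.67 FPKM in CGG and 0.281, 0.209 and 0.32 in CGG-Cit and was not called (adjusted p = 0.207). Eif2ak1, the haem-regulated kinase that holds back globin translation when haem is short, had a log2 fold change of -0.35 and was not called (adjusted p = 0.0514). Bach1, a repressor released by haem, had a log2 fold change of 0.07 (adjusted p = 0.714). The number called lower was 2, 0 and 0 without CGG 1, CGG 2 and CGG 3, and 0, 0 and 9 without CGG-Cit 1, CGG-Cit 2 and CGG-Cit 3, where 12, 13 and 10, and 13, 10 and 12, had an unadjusted limma p under 0.05.

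Of 17 genes of the red cell membrane 14 were called lower and 1 higher, beside 9.78% and 7.75% over all genes. Their median log2 fold change was -1.17, against 0.002 for all genes. Slc4a1 had 242, 249 and 295 FPKM in CGG and 111, 80.1 and 168 in CGG-Cit (log2 fold change -1.18, adjusted p = 0.0283). Tmod1, which caps the actin filaments of the membrane skeleton, fell by 1.80 on the log2 scale (adjusted p = 0.00991) and Tspo2, an erythroid translocator protein, by 1.78 (0.00724). The higher gene, named after its value was seen, was Slc2a1, a glucose transporter of many cell types, at 14, 12.8 and 17.1 FPKM in CGG and 101, 45 and 25.8 in CGG-Cit (log2 fold change 1.69, adjusted p = 0.0465); with a library left out it passed without CGG-Cit 3 alone, and it was also lost without the filter and with the replicate block (adjusted p up to 0.0775). The number called lower was 6, 4 and 1 without CGG 1, CGG 2 and CGG 3, and 5, 4 and 16 without CGG-Cit 1, CGG-Cit 2 and CGG-Cit 3, with 15 to 17 of the 17 at an unadjusted p under 0.05.

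Of 19 genes of red cell enzymes and maturation 12 were called lower and 0 higher, beside 9.78% and 7.75% over all genes. Their median log2 fold change was -0.79, against 0.002 for all genes. Car2, a carbonic anhydrase, fell by 1.27 on the log2 scale (adjusted p = 0.0176), Prdx2, a peroxidase abundant in red cells, by 0.87 (0.0212), Tfrc, the transferrin receptor, by 1.06 (0.0274), and Icam4, an adhesion protein of the erythroblast surface, by 1.19 (0.00823). Blvrb, a biliverdin reductase, had a log2 fold change of -0.46 and was not called (adjusted p = 0.0657). The number called lower was 3, 3 and 1 without CGG 1, CGG 2 and CGG 3, and 1, 1 and 13 without CGG-Cit 1, CGG-Cit 2 and CGG-Cit 3. Of the 35 genes named by rule that were called, Icam4, Tspo2 and Lrp1 were the 3 that passed without CGG 3.

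**Figure D4:**
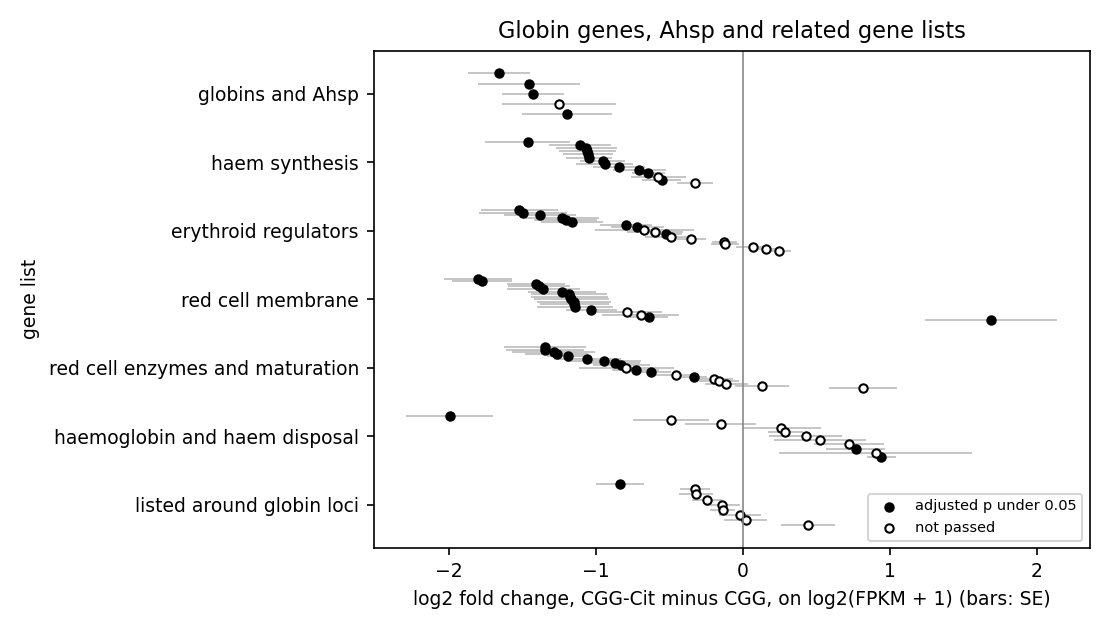
Log2 fold change (CGG-Cit minus CGG, log2(FPKM + 1) scale) of each tested gene of 7 groups of genes. Points are genes, grey bars are standard errors, and filled points have an adjusted p under 0.05. The 5 globin and chaperone genes lie between -1.66 and -1.198, most genes of the 4 red cell lists lie to the left of 0, and the disposal genes and the genes listed around the globin loci lie on both sides.

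Of 11 tested genes that clear haemoglobin and haem, 1 was called lower and 2 higher, with a median log2 fold change of 0.43. Over all genes 9.78% were called lower and 7.75% higher, so these counts are near the background and are no result about the group. Hp, haptoglobin, which binds free haemoglobin and is also made by neutrophil precursors, had 213, 301 and 240 FPKM in CGG and 55.9, 43 and 97.2 in CGG-Cit (log2 fold change -1.995, adjusted p = 0.013). The neutrophil markers moved the same way, as given with the other markers. Lrp1, a receptor that takes up haem bound to hemopexin, had a log2 fold change of 0.94 (adjusted p = 0.00556), and Blvra, a biliverdin reductase, of 0.77 (0.0468). Hmox1, haem oxygenase, had 65.8, 76.7 and 71.9 FPKM in CGG and 175.8, 84.8 and 72.9 in CGG-Cit, where CGG-Cit 1 stood high, and was not called (adjusted p = 0.279). Cd163, the haemoglobin receptor of macrophages, had a log2 fold change of -0.49 (adjusted p = 0.223), Hpx, hemopexin, was at 0.336 to 1.55 FPKM (adjusted p = 0.531), and Ftl1, the ferritin light chain, had a log2 fold change of 0.72 (adjusted p = 0.0836). With a library left out, Hp failed the test without CGG 3 alone and Blvra passed without CGG-Cit 3 alone. Blvra was also lost when all genes were tested with no filter (adjusted p = 0.0736) and with the replicate number as a block (0.0997), whereas Lrp1 passed in all 20 alternative fits.

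Of 9 tested genes listed by name as lying around the globin clusters of mammals, 1 was called lower and 0 higher, with a median log2 fold change of -0.14. A share of 1 in 9 is near the 9.78% called lower over all genes, so the count is no result about the loci. The table also does not place all 9 beside the globins: Polr3k is listed on chromosome 3, and Stim1, Rrm1 and Trim21 lie between 167373678 and 167708714 on chromosome 1, well outside the span of the beta globin rows. Nprl3, whose introns hold the main enhancers of the alpha cluster, had a log2 fold change of -0.32 and was not called (adjusted p = 0.106). On the chromosome of the beta cluster, Rrm1, a subunit of ribonucleotide reductase, fell by 0.84 on the log2 scale (adjusted p = 0.0232), while Stim1 at -0.33 (0.0722) and Trim21 at 0.44 (0.135) were not called. Rrm1 passed without CGG 2 and without CGG-Cit 3 and in no other fit that left out a library.

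Markers of most other cell types examined were lower with the globins in these whole-tissue libraries. Macrophage markers were mostly higher instead, and endothelial markers were not called. The part of these cells in the globin result was not tested. The background for the counts below is 9.78% called lower and 7.75% called higher over all genes tested. Of 8 neutrophil markers 7 were called lower and 1, Ltf, lay under the filter, with summed levels of 14385 to 16348 FPKM in CGG and 2301 to 5959 in CGG-Cit. Lower were also 4 of 6 platelet markers (475 to 531 and 185 to 406 FPKM, Gp1bb listed at 0), 3 of 4 B cell precursor markers (93 to 136 and 34.9 to 62.4) and 5 of 6 osteoblast markers (8577 to 12620 and 4195 to 7139). All 4 skeletal muscle markers were lower, at 4468 to 6181 FPKM summed in CGG and 33.7 to 234 in CGG-Cit. Of 5 macrophage markers 4 were higher (330 to 357 FPKM in CGG and 574 to 892 in CGG-Cit), and 0 of 5 endothelial markers were called by limma (85 to 141 and 120 to 163, 1 with an unadjusted p under 0.05). These counts also fell with a library left out, as did those over all genes, to 190 lower and 122 higher of 15965 without CGG 3. Without CGG 3 limma called 0 neutrophil, 0 platelet and 0 B cell precursor markers (7, 4 and 3 at an unadjusted p under 0.05), 1 osteoblast, 1 macrophage and all 4 muscle markers. Neutrophil calls were 5, 1, 1 and 2 without CGG 1, CGG 2, CGG-Cit 1 and CGG-Cit 2 in turn, platelet calls 2, 0, 0 and 1, B cell precursor calls 1, 2, 3 and 1, osteoblast calls 1, 1, 5 and 1 and macrophage calls 4, 2, 1 and 1. CGG-Cit 3 was the CGG-Cit library with the highest sums of the neutrophil (5959 FPKM), platelet (406), B cell precursor (62.4), endothelial (163), muscle (234) and osteoblast (7139) markers, and with the lowest macrophage sum (574).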

How the data were processed

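RNA from the defect tissue was sequenced in read pairs, and the authors deposited 1 table of FPKM for 34045 genes in 6 libraries. Tools listed in the submitters' processing notes, without roles, are the aligner HISAT2 2.0.5, the counter featureCounts 1.5.0-p3 and DESeq2 1.20.0, beside the build mRatBN7.2; how strand and reads shared by copies were handled, and the annotation, is not given in the sources used here. FPKM times gene length gave whole fragments for 100% of values within 0.01, and totals of 14744207 to 16224920 per library. Precision is set mainly by 3 libraries a group; the values cover counting error and library spread together.

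The 5 members and all gene lists were chosen with earlier results of these data known. Groups came from titles and treatment labels. Genes whose mean reached 0.5 FPKM were tested on log2(FPKM + 1) with limma 3.58.1 (lmFit, eBayes with trend) in R 4.3.3, Benjamini-Hochberg adjusted over 15965 genes, with no block. This scale understates the change of low genes. Ratios and shares used exact two-sided permutation tests, and 6 ratios were computed. Some planned items are not reported here. The code was tested on simulated data.

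Named genes were the 5 members, the 10 nearest profiles, the up to 4 smallest p-values of each list, and 20 chosen by name, 51 measured in all; LOC100134871, Hbq1a and Slc2a1 were added after their values were seen. Of 114 list symbols 98 matched. Same-numbered libraries did not deviate together (correlations -0.0956, 0.00165 and -0.0779), so the numbers were not used as pairs. There were 20 alternative fits: pseudocounts, filters, scalings, robust variance, sample weights, a replicate block, voom on recovered fragments, summed copies and each library left out. Start regions came from RefSeq's GRCr8 table. Python 3.11.15 and pandas 2.3.3 prepared the tables.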

Additional observations from a re-analysis of the deposited data

How the results depend on the processing

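With an adjusted p under 0.05, 1561 genes were lower and 1237 higher; leaving out a library gave 190 to 1622 and 122 to 1312. TPM scaling gave 948 lower and 2203 higher (69.9% of calls higher, against 44.2%), and equal totals without the 4 globin genes gave 997 lower (62.5% higher). The replicate block gave 612 higher, and kept the same 4 globin and chaperone calls; a threshold of 0.01 gave 156 lower and 79 higher, and one of 0.1 gave 2413 and 2083. Of the 5 globin and chaperone genes, 4 were called lower. Without the filter on low values 2 were, 2 after quantile normalization, 1 at the 0.01 threshold, and 0 to 5 with a library left out. With copies summed the rows were 3, of which 2, the alpha sum and Ahsp, were called lower and the beta sum was not. Of the 7 related gene lists 50 genes were lower, 2 to 54 with a library left out and 3 at 0.01. The genes of these lists called higher were 3, against 1 without the filter, 8 with TPM, 5 after quantile normalization, 8 with equal totals without the globins, 5 with sample weights, 1 with the replicate block, 5 with voom, 1 at 0.01 and 7 at 0.1, and 1 to 5 with a library left out. The Ahsp to alpha globin ratio changed sign without CGG-Cit 3 (log2 difference 0.0395; -0.134 to 0.0395 with each library left out), and the Bach1 log2 fold change did without CGG-Cit 1 (-0.0167; -0.0167 to 0.141 with each library left out). The causes of these changes were not tested. Under the block, sign flips of the ratios gave the same differences with exact p of 0.25 to 1, where 0.25 is the smallest possible; the block changed no other call of the 5 genes. One planned ratio was not run. Depth did not limit the 5 genes, the lowest of which had 1054 fragments in a library.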
